A study of Mus musculus with 12 samples.

Results

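Donor CD8 T cells lacking TCF-1 were compared with WT donor CD8 T cells at day 7 after allogeneic transplant, and genes for effector function, adhesion, homing and metabolism were followed in each library. The comparison uses 6 of the 12 RNA-seq libraries of the series, 3 TCF-1 cKO and 3 WT, and was made on 16026 genes with enough counts of 35855 genes with an annotated transcript. TCF-1 cKO donors carried a floxed TCF-1 gene (Tcf7, named TCF-7 in the sample labels) and CD4cre, which deletes in T cells from the double-positive stage of the thymus onward, so the cells had matured without the factor. WT donors were B6-Ly5.1 or C57Bl/6J mice, and which of them gave a library is not stated in the sources used here. The methods state that CD3 donor T cells of either genotype were given to lethally irradiated BALB/c recipients with T cell-depleted WT bone marrow. At day 7 donor CD8 T cells were sorted back from recipient spleens. The methods add that donor CD8 T cells were also sorted before transplant, and a figure legend names sorted CD8 T cells as those given. Whether donor CD4 T cells were given as well is not settled by these sources. The WT libraries also served in other publications of the same laboratory. The labels give C57BL/6 as the background strain for all groups, without the age of the animals. They do not say whether the day 7 replicates come from separate recipients, so the p-values below measure the spread between these libraries, which may be technical.

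TCF-1 is a DNA-binding factor of the TCF/LEF family that keeps T cells in naive and memory-like states, and its level drops as CD8 T cells become effectors. Effector CD8 T cells kill with perforin and granzymes, bind targets through integrins such as LFA-1, and leave or enter tissue by way of chemokine and lipid receptors. Their growth rests on glycolysis together with mitochondrial respiration. After allogeneic transplant these functions carry both graft-versus-leukemia activity and graft-versus-host disease, and the comparison asks which of their transcripts differ when TCF-1 is absent.

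Library totals ran from 18184814 to 32657005 estimated counts, and 3 counts, taken as the smallest level a library could show, stood for 0.0919 to 0.165 CPM (counts scaled to a library total of 1000000). Counts followed the GC content of the transcripts in a manner that differed between libraries. Spearman's rho between a library's deviation from the gene mean and GC content, taken across genes and given without a test, was -0.52, -0.34 and -0.50 in the TCF-1 cKO libraries and 0.48, 0.55 and -0.10 in WT replicates 1, 2 and 3. The curve of each library on GC content was therefore removed, after which rho lay between -0.01 and 0.05. Removing it took the rho between fold change and GC content from -0.58 to 0.06 and the median log2 fold change from 0.15 to -0.07. WT replicate 3 stood apart from the other WT libraries as counted. Its counts lay nearer to TCF-1 cKO replicate 2 (chi-square per degree of freedom 71.5) than to WT replicate 1 (341) or WT replicate 2 (724). With the GC trend removed this order did not hold throughout. The rho of WT replicate 3 was then 0.921 with WT replicate 1 and 0.866 with WT replicate 2. With TCF-1 cKO replicates 1, 2 and 3 it was 0.926, 0.900 and 0.891. The share of counts from mitochondrially encoded genes was 8.15%, 4.68% and 6.55% in TCF-1 cKO and 2.70%, 1.08% and 4.60% in WT, with the highest WT value in replicate 3. What part GC content, RNA quality and WT replicate 3 have in the results beyond the fits given here was not tested.

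**Figure D1:**
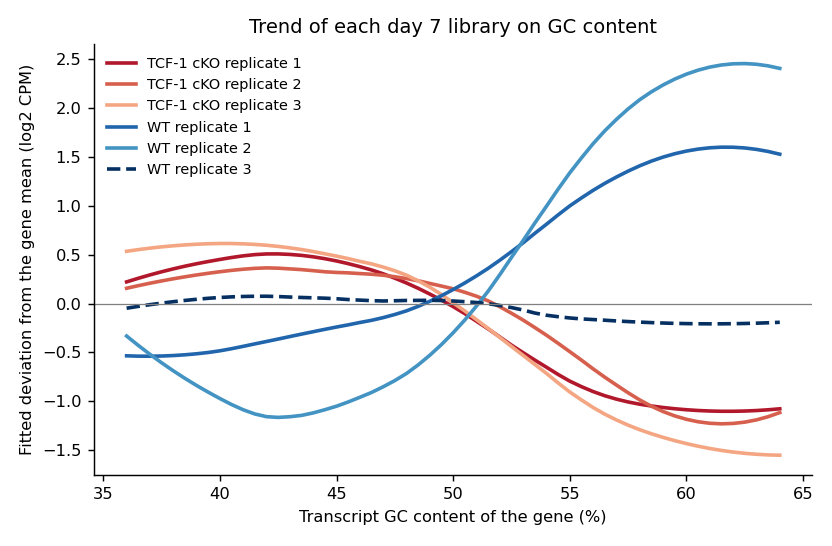
Fitted deviation of each day 7 library from the gene mean (log2 CPM, y axis) against transcript GC content (%, x axis), with 1 line per library. At a GC content of 60% WT replicates 1 and 2 lay at 1.56 and 2.35, WT replicate 3 at -0.20, and the 3 TCF-1 cKO libraries between -1.43 and -1.09.

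The labels were first checked against marker genes. Cd8a and Cd8b1, which encode the chains of the CD8 coreceptor, were read in all 6 libraries, at 256 to 852 and 617 to 1586 CPM with the GC trend removed. Cd4 stayed between 0.781 and 4.19 CPM. One label of TCF-1 cKO replicate 2 names CD4 T cells, yet this library held 336 CPM of Cd8a and 1.20 CPM of Cd4, and it was kept as the CD8 sample of its title. The sum of 9 CD8 T cell markers, as counted, overlapped, with 10492 to 11969 against 5819 to 12525 CPM for WT. Cd3d (1229 to 1474 against 774 to 941 CPM) was higher without TCF-1 in all 9 pairs. So was Cd3g (1513 to 2346 against 148 to 1110 CPM). Cd3e (102 to 119 against 200 to 797 CPM) was lower in all 9, as was Thy1 (88.4 to 94.0 against 128 to 237 CPM). The rest of this list overlapped. With the GC trend removed, 1 of the 9 was higher and 1 lower in all 9 pairs. Markers of other cells were read as well, given here as counted. The summed level of 5 dendritic cell markers spanned 25.8 to 31.5 CPM for TCF-1 cKO and 42.2 to 64.2 CPM for WT. That of 3 CD4 T cell markers spanned 3.54 to 8.49 against 9.15 to 50.2 CPM. That of 4 stromal and endothelial markers spanned 5.82 to 10.4 against 1.23 to 4.69 CPM. These 3 sums did not overlap between genotypes as counted. With the GC trend removed, however, none of the 3 CD4 T cell markers was without overlap. Their median log2 fold change was then -0.41, against -3.34 as counted. The dendritic cell sum was set by Itgax, also an integrin gene, and the other 4 markers (Siglech, Flt3, Xcr1 and Zbtb46) summed to 9.27, 13.7 and 18.4 CPM in TCF-1 cKO against 4.39, 5.69 and 9.93 CPM, with Flt3 higher in all 9 pairs. The sums of 8 B cell, 6 plasma cell, 8 myeloid, 8 erythroid, 4 NK and gamma-delta T cell and 4 platelet markers did overlap. Of these the myeloid sum spanned 140 to 506 CPM for TCF-1 cKO and 123 to 145 CPM for WT. Of its 8 markers, Lyz2 (20.7 to 149 against 9.28 to 15.2 CPM), S100a8 (52.0 to 178 against 16.0 to 48.2 CPM) and S100a9 (32.2 to 136 against 3.45 to 20.8 CPM) were each higher in all 9 pairs as counted. The other markers of this list overlapped. Among them Cd68 was at 18.5 to 42.6 against 35.1 to 68.9 CPM and Csf1r at 2.74 to 4.15 against 2.76 to 10.3 CPM. With the GC trend removed, 1 of the 8 was higher in all 9 pairs and none lower. The part of these markers in the results was not tested. None of the lists had a marker at 0 in all 6 libraries. In sorted bulk samples, fewer cells of a type and less RNA per cell cannot be told apart.

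Tcf7 transcripts did not separate the genotypes at day 7. With the GC trend removed the level was 8.85 to 10.3 CPM over TCF-1 cKO libraries and 14.6, 13.7 and 6.27 CPM in WT, with the lowest value of all in WT replicate 3. The log2 fold change was -0.24 ± 0.44 (SE; edgeR quasi-likelihood test, Benjamini-Hochberg adjusted p = 0.79), and its sign changed under other trend removals. Before transplant the same total was lower in TCF-1 cKO, with a log2 fold change of -2.03 ± 0.53 (adjusted p = 0.063, edgeR). The median over all genes there was -0.27. The interaction of genotype with stage was 1.38 ± 0.72 for Tcf7 (adjusted p = 0.38, edgeR). The deleted part of the gene is not given in the sources used here, and a total over all exons need not drop with it. The day 7 values therefore do not check the genotype. Lef1, the close relative of TCF-1, ran from 14.3 to 21.4 CPM without TCF-1 and from 21.0 to 66.6 CPM in WT. Of 10 tested TCF/LEF factors and partners, the corepressors Tle3, Tle4 and Aes were lower in TCF-1 cKO in all 9 pairs of libraries with the GC trend removed, where 13.5% of all genes were lower, and none was higher. Tle4 and Aes were lower on the scale without length and level trends too, and Tle3 was not.

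Few genes passed the test across all genes once the GC trend was removed. At an FDR of 0.1, edgeR called 3 of 16026 genes (0.0187%), all higher in TCF-1 cKO and none lower, while 3086 genes (19.3%) had an unadjusted p under 0.05. limma-voom called 2 genes higher and 0 lower. The 3 genes were Rps3a2, a ribosomal protein gene copy, Hist1h4m, a histone H4 gene, and the gene model Gm45315. Rps3a2 measured 534, 539 and 615 CPM in TCF-1 cKO and 2.06, 2.92 and 2.83 CPM in WT (log2 fold change 7.76 ± 0.40, adjusted p = 0.00015, edgeR). Hist1h4m had 395, 630 and 827 counts in TCF-1 cKO and 0, 3 and 0 in WT, and Gm45315 had 562, 471 and 778 counts against 2, 5 and 2. Before transplant the log2 fold changes of the 3 genes, in the same order, were 5.05, 8.38 and 6.19. Rps3a2 and Hist1h4m share sequence with near-identical copies, so their counts are uncertain. As counted, without removal of the GC trend, edgeR called 403 genes higher (2.51%) and 2465 lower (15.4%).

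The count of calls rested on WT replicate 3. Without it edgeR called 1122 genes higher (6.17%) and 1773 lower (9.75%) of 18183 tested with the GC trend removed, whereas leaving out any other library gave at most 3 calls in all. DESeq2 on all 6 libraries called 922 genes higher (5.75%) and 1395 lower (8.70%). None of the 574 tested members of the effector, adhesion, homing and metabolic groups passed edgeR's FDR with all 6 libraries, the smallest adjusted p being 0.117, a value shared by 334 genes. Without WT replicate 3, 46 members were called higher and 140 lower of 581 tested, and by DESeq2 29 and 108.

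Direction was therefore followed pair by pair. A gene was counted when each TCF-1 cKO library lay on the same side of each WT library in all 9 pairs, which is the same as no overlap between the genotypes. With the GC trend removed this held for 27.5% of all genes, of which 14.0% of all genes were higher and 13.5% lower in TCF-1 cKO. Among the 574 members, 72 were higher and 132 lower. The lower share of all genes depends on their level, since among genes with a mean above 10 CPM, where 419 of the members lie, 22.0% were lower and 13.9% higher. The median log2 fold change was -0.24 over the members, -0.07 over all genes and -0.24 over genes above 10 CPM. The lower count of the members was thus close to that of other well-expressed genes.

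By group, 16 of 141 effector genes were higher and 32 lower, with a median log2 fold change of -0.34. For adhesion these counts were 10 and 30 of 104 (median -0.23), for homing 6 and 16 of 80 (median -0.39) and for metabolism 41 and 54 of 250 (median -0.18). After removal of GC content, fold change still followed mean level (rho -0.22) and length (rho -0.13) across genes. A second scale, added after the data were seen, removed the trends on length and level too. On this second scale alone, 79 members were higher and 112 lower in all 9 pairs. Members with the same direction in all 9 pairs as counted, with the GC trend removed and on this second scale also numbered 112. The counted scale still carries the GC trend (rho -0.58 between fold change and GC content), so this choice depends on GC content too. Of the 574 members, 32 were higher on all 3 scales (5.57%) and 80 lower (13.9%), against 7.30% and 6.65% of all genes. These shares of all genes are not matched to the level of the members. No share among genes above 10 CPM was taken on all 3 scales, so the lower count cannot be set against other well-expressed genes. Most of the 112 members are named below. In 95 of them (84.8%) WT replicate 3 was the WT library nearest to TCF-1 cKO, against 66.4% of all genes without overlap with the GC trend removed. Without that library, edgeR called 9 of the 32 and 74 of the 80 at an FDR of 0.1. Of all genes tested without it, 6.17% were called higher and 9.75% lower. The members were chosen for separation in these same libraries, so their calls are not a separate check. The share called among all genes kept on the 3 scales was not taken.

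**Figure D2:**
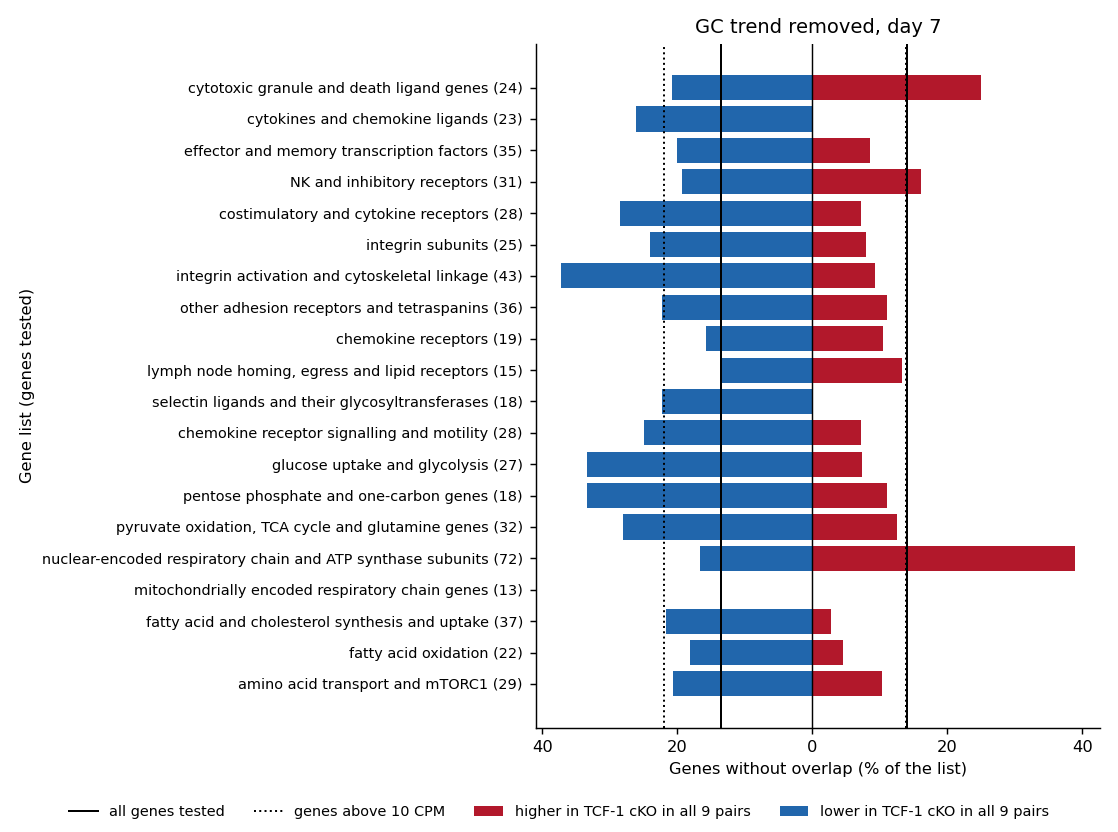
Share of each gene list (%, x axis) with no overlap between genotypes at day 7, GC trend removed, higher in TCF-1 cKO to the right and lower to the left, with the number of genes tested in brackets. Solid lines mark all genes tested (14.0% higher, 13.5% lower) and dotted lines genes above 10 CPM (13.9% and 22.0%); integrin activation genes reach furthest to the left and nuclear-encoded respiratory chain subunits furthest to the right.

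Promoters of the named genes were read because TCF-1 binds DNA. TCF/LEF factors recognise a core of the letters CTTTGA, and this core was searched on both strands, as CTTTGA or TCAAAG, in the 250 bases before RefSeq starts (GRCm38.p6). It was present in 13.8% of 32851 promoters of all genes and in 11.8% of 586 promoters of the members, of which 454 genes matched by symbol. Members higher on all 3 scales had it in 6 of 29 promoters (26 of 32 genes matched) and members lower on all 3 scales in 8 of 85 promoters (62 of 80 genes matched). The following windows of named genes hold a match and lie outside annotated exons but for at most 2 bases, and are shown to place the letters, in capitals, relative to the start that follows the last base.
Cd160 (chr3:96814522-96814771, minus strand): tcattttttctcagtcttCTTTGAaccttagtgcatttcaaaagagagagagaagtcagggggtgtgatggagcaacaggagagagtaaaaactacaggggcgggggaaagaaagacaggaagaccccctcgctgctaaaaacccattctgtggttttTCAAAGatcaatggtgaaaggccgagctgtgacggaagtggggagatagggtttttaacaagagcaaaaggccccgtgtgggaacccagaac
Cxcr6 (chr9:123806227-123806476, plus strand): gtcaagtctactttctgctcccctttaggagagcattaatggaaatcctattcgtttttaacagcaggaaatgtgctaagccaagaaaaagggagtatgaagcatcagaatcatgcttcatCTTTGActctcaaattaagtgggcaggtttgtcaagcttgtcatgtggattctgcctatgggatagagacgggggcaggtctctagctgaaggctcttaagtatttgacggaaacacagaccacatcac
Myo1f (chr17:33555457-33555706, plus strand): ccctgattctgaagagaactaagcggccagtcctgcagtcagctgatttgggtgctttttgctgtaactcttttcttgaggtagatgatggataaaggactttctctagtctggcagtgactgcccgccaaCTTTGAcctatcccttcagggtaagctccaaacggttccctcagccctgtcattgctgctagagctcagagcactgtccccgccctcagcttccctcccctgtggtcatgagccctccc
Gpr18 (chr14:121915889-121916138, minus strand): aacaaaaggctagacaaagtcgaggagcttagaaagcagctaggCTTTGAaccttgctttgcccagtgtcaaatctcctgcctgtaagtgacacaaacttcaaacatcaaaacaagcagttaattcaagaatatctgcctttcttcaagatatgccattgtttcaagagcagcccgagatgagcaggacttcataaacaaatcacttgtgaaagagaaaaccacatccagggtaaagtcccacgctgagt
Pmvk (chr3:89454291-89454540, plus strand): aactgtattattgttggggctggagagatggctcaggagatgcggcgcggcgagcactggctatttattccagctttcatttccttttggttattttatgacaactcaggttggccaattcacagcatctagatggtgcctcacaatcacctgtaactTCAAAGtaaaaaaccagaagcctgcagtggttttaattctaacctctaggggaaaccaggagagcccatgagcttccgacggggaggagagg
Ldha (chr7:46846832-46847081, plus strand): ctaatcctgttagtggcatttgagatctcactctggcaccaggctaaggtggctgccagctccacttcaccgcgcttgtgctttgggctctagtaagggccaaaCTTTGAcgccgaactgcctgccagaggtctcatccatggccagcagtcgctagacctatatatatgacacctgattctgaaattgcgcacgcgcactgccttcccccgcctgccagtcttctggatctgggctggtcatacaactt
The Cd160 window carries 2 matches, 232 and 92 bases before the start, and the others 1 each, at 129 bases for Cxcr6, 119 for Myo1f, 206 for Gpr18, 92 for Pmvk and 146 for Ldha. Cd160, Pmvk and Ldha each have another annotated start whose window holds no match. Cd160 and Cxcr6 were higher in TCF-1 cKO, Myo1f, Gpr18 and Pmvk lower, and Ldha overlapped between genotypes, so the letters occurred with each outcome. A match is a description of the sequence, and no binding was measured in these samples.

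Among effector genes, several cytotoxic transcripts moved apart. Perforin, 4 Ccl chemokine ligands and parts of the secretory machinery were lower in TCF-1 cKO, while granzymes C and D, Klrk1 and granzyme inhibitors were higher. Prf1, which encodes perforin, the pore-forming protein of killer cells, measured 108, 108 and 124 CPM in TCF-1 cKO and 453, 487 and 161 CPM in WT. All TCF-1 cKO libraries lay below all WT libraries, with WT replicate 3 nearest to them, and the log2 fold change was -1.70 ± 0.43 (SE; adjusted p = 0.12, edgeR). Nkg7, a granule membrane protein, measured 1312, 1147 and 991 CPM against 4751, 6506 and 2207 CPM. Stx11, a syntaxin of granule exocytosis, measured 13.5, 8.68 and 7.33 CPM against 63.1, 46.6 and 28.2 CPM. The log2 fold changes were -1.96 ± 0.42 and -2.22 ± 0.45, and in both genes WT replicate 3 held the lowest WT value. Ctsw, the protease cathepsin W (-1.50), and Gzmm, granzyme M (-1.18), were lower as well on all 3 scales.

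Of 24 cytotoxic granule and death ligand genes, 6 were higher and 5 lower in all 9 pairs on all 3 scales. With the GC trend removed the shares were 25% and 20.8%, beside 13.9% and 22.0% of genes above 10 CPM. Gzmc, encoding granzyme C, was the clearest of the higher ones, with 178, 95.1 and 88.1 CPM in TCF-1 cKO and 17.0, 30.3 and 14.1 CPM in WT (log2 fold change 2.56 ± 0.45, adjusted p = 0.12, edgeR). Gzmd, granzyme D, had 145, 80 and 38 counts in TCF-1 cKO and 5, 0 and 0 counts in WT, too few for a fold change. Granzymes lie in a gene cluster with similar sequence, so reads may be split between them. Serpinb9, an intracellular inhibitor of granzyme B, measured 932, 705 and 894 CPM against 460, 274 and 614 CPM (0.91 ± 0.36). Serpinb6b (0.83), the death ligand genes Fasl (0.69) and Tnfsf10, or TRAIL (1.02), were higher too. Gzmb, the main granzyme of CD8 T cells, overlapped, with 2738 to 3464 CPM against 2263 to 2953 CPM (0.27 ± 0.29, adjusted p = 0.64, edgeR).

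Ccl1, Ccl3, Ccl4 and Ccl5 were lower in TCF-1 cKO in all 9 pairs on all 3 scales. Of 23 cytokine and chemokine ligand genes tested, 6 were lower and none higher in all 9 pairs with the GC trend removed, and 5 of them on all 3 scales, beside 22.0% of all genes above 10 CPM that were lower. Ccl4 (MIP-1 beta), which draws other leukocytes, measured 59.8, 89.3 and 59.6 CPM against 308, 564 and 150 CPM, and Ccl3 (MIP-1 alpha) at most 32.7 CPM in TCF-1 cKO against 106, 221 and 43.9 CPM in WT. Their log2 fold changes were -2.29 ± 0.49 and -2.68 ± 0.65. Ccl1 measured 3.60, 5.40 and 6.42 CPM against 47.3, 47.1 and 16.0 CPM (-2.84 ± 0.52), Ccl5 (RANTES) had a log2 fold change of -1.79, and the secreted factor Il16 one of -0.70. Ifng, which encodes interferon gamma, was at 39.7, 98.2 and 72.2 CPM against 32.6, 42.1 and 41.4 CPM and overlapped in 2 of the 9 pairs (0.86 ± 0.39, adjusted p = 0.27, edgeR).

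Receptors split in the same way. Klrk1, encoding the NK receptor NKG2D, measured 327, 290 and 357 CPM in TCF-1 cKO and 147, 29.5 and 241 CPM in WT, without overlap (1.22 ± 0.61, adjusted p = 0.31, edgeR). Cd160, a receptor for herpesvirus entry mediator, whose promoter is shown above, measured 540, 366 and 454 CPM against 187, 137 and 248 CPM (1.25 ± 0.34). The costimulatory receptor Cd226 (1.13) and the inhibitory receptors Havcr2, or TIM-3 (0.75), and Lair1 (0.65) were also higher. Cd5, which dampens T cell receptor signals, measured 46.1, 54.6 and 41.3 CPM against 114, 122 and 108 CPM (-1.28 ± 0.29), and here WT replicate 3 lay with the other WT libraries. Tigit (-1.65), Lag3 (-1.59) and Vsir, or VISTA (-1.55), were lower, so inhibitory receptors stood on both sides.

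The IL-2 receptor chains did not move together. Il2ra, the inducible alpha chain, measured 33.0, 37.9 and 54.9 CPM in TCF-1 cKO and 22.5, 20.4 and 30.1 CPM in WT. Il2rb, the beta chain that also serves IL-15, measured 333, 124 and 250 CPM against 871, 1143 and 346 CPM, and Il2rg, the shared gamma chain, 229, 188 and 145 CPM against 839, 1580 and 324 CPM. The alpha chain was higher (0.78 ± 0.36) and the beta (-1.74 ± 0.52) and gamma chains (-2.29 ± 0.54) were lower in all 9 pairs on all 3 scales. Il18rap, an IL-18 receptor chain, was higher (0.44), and Tnfrsf4, or OX40, a costimulatory receptor, lower (-1.80). Of 35 effector and memory transcription factors, 7 were lower (20%) and 3 higher (8.57%) with the GC trend removed. The lower share is near that of genes above 10 CPM, of which 22.0% were lower and 13.9% higher. On all 3 scales 4 were lower and none higher, namely Id3 (-2.74), a factor of memory precursors, Bhlhe40 (-2.16), Gata3 (-2.13) and the activation-induced Nr4a1 (-1.20). Batf, a factor of effector differentiation named after its values were seen, overlapped as counted, so it is not among the members kept on all 3 scales. With the GC trend removed Batf was higher, at 1240, 872 and 1226 CPM against 165, 158 and 593 CPM (1.87 ± 0.54, adjusted p = 0.14, edgeR). It was called by DESeq2 (adjusted p = 0.013) and by edgeR without WT replicate 3 (adjusted p = 0.011). Of the 32 higher members kept on all 3 scales, these fits called 7 and 9. Klrk1 was called by neither (adjusted p = 0.198 by DESeq2 and 0.105 by edgeR without WT replicate 3).

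**Figure D3:**
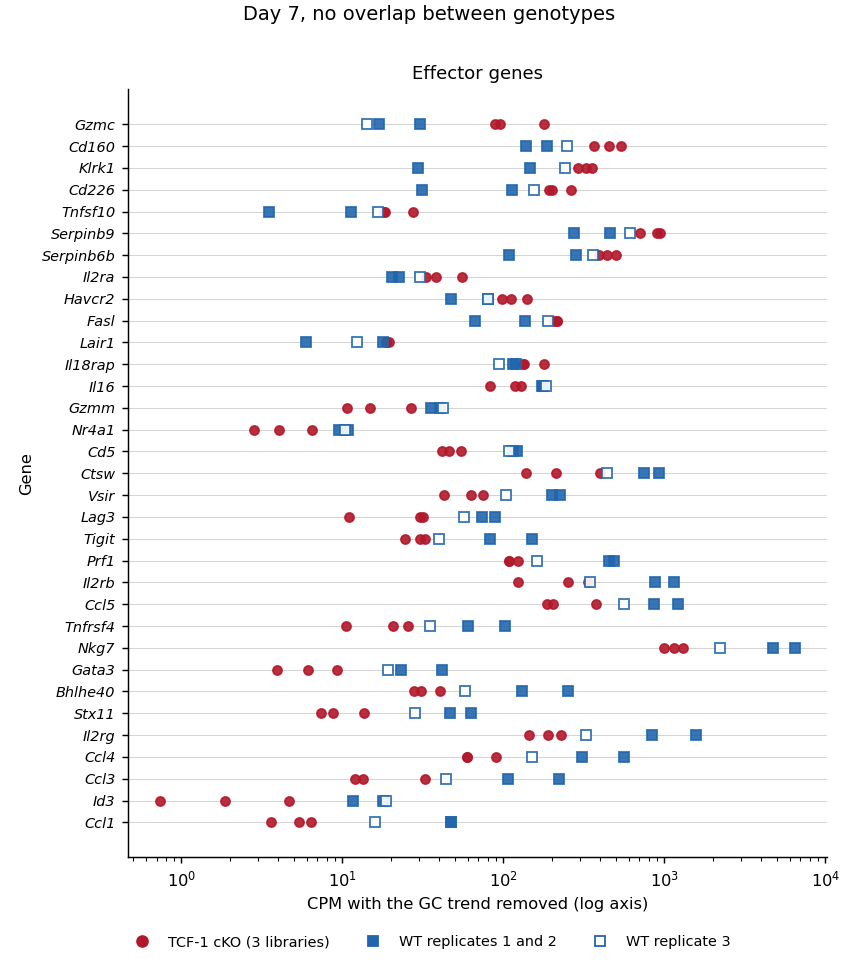
CPM with the GC trend removed (x axis, log scale) of effector genes without overlap between genotypes on all 3 scales, 1 row per gene, 1 symbol per library; Gzmd is left out because WT libraries are at 0. Circles (TCF-1 cKO) lie on one side of squares (WT) in every row, and the open square of WT replicate 3 is mostly the WT library nearest to them.

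Of 104 adhesion genes, 19 were lower and 5 higher in TCF-1 cKO on all 3 scales, beside 6.65% and 7.30% of all genes. Those shares are not matched to level, since 69 of the 104 lie above 10 CPM, against 6391 of all 16026 genes. With the GC trend removed, 28.8% of the group was lower and 9.62% higher, beside 22.0% and 13.9% of genes above 10 CPM. Both chains of LFA-1 were among the lower genes on all 3 scales. Itgal, the alpha chain of LFA-1, measured 135, 65.3 and 76.4 CPM in TCF-1 cKO and 372, 447 and 148 CPM in WT. Itgb2, the beta chain, measured 172, 152 and 137 CPM against 723, 634 and 230 CPM. Itgax, which pairs with Itgb2, measured 17.0, 10.7 and 13.3 CPM against 50.6, 78.9 and 28.8 CPM. The log2 fold changes were -1.81 ± 0.48, -1.78 ± 0.44 and -1.95 ± 0.44, with adjusted p from edgeR of 0.13, 0.12 and 0.12. Itgax is also 1 of the 5 dendritic cell markers whose sum did not overlap between genotypes. The other 4 markers of that list were each below 10 CPM in each library as counted. Their sum was higher in TCF-1 cKO in 8 of the 9 pairs. What part dendritic cells have in the Itgax values was not tested.

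Of 43 genes of integrin activation and cytoskeletal linkage, 16 were lower and 4 higher in all 9 pairs with the GC trend removed, and 11 and 2 on all 3 scales. The 16 and 4 are 37.2% and 9.30% of the list, beside 22.0% and 13.9% of genes above 10 CPM. Rac2, a small GTPase of blood cells that drives actin assembly, measured 602, 255 and 369 CPM against 2782, 5157 and 803 CPM, a log2 fold change of -2.83 ± 0.65. Parvg, parvin gamma, an adaptor between integrins and actin, measured 23.4, 13.2 and 28.7 CPM against 110, 175 and 51.7 CPM (-2.37 ± 0.51). Sharpin, which holds integrins in the inactive state, measured 15.8, 8.11 and 10.2 CPM against 44.3, 43.6 and 26.4 CPM (-1.75 ± 0.40). The list thus includes an inhibitor beside activators. The Rap1 effectors Rassf5 (-1.56, with the opposite sign when GC content was not weighted by abundance) and Apbb1ip (-1.26), the actin crosslinker Flna (-1.43), the kinase Ptk2b (-1.37), Cyth1 (-1.27), Zyx (-1.26), Evl (-1.25) and Vasp were lower as well. Cdc42, another small GTPase, measured 1019, 854 and 915 CPM against 625, 448 and 744 CPM and was higher (0.62 ± 0.31), as was Lims1 (0.80).

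Other surface adhesion molecules went both ways. Cd48, a ligand of the SLAM family, measured 2329, 1872 and 2641 CPM in TCF-1 cKO and 920, 349 and 1640 CPM in WT (1.23 ± 0.51), and Slamf1 (0.53) and the tetraspanin Cd53 (0.84) were higher too. The tetraspanins Cd37 and Tspan32 were lower, at 32.8 to 51.6 against 91.8 to 152 CPM and at 35.5 to 40.4 against 71.6 to 165 CPM (-1.60 ± 0.34 and -1.63 ± 0.37). Cd82 (-1.93), another tetraspanin, Spn, or CD43 (-1.53), and Sema4a (-1.18) were lower. Members of the tetraspanin family therefore stood on both sides. Skap1, an adaptor that couples the T cell receptor to LFA-1, was higher in all 9 pairs with the GC trend removed (0.55 ± 0.29), but not on the scale without length and level trends, and the direction reversed with unweighted GC content.

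Among homing genes, Cxcr3 and S1pr1 were lower and Cxcr6 and Cd69 higher in TCF-1 cKO. Cxcr3, the receptor for interferon-induced chemokines that guides effector cells into inflamed tissue, measured 54.5, 33.7 and 48.0 CPM in TCF-1 cKO and 208, 384 and 105 CPM in WT (-2.36 ± 0.49, adjusted p = 0.12, edgeR). S1pr1, the receptor by which T cells leave lymphoid organs, measured 42.6, 55.8 and 27.0 CPM against 177, 189 and 96.4 CPM (-1.88 ± 0.41). Cd69, which binds S1PR1 and removes it from the surface, measured 42.3, 59.3 and 42.0 CPM against 28.3, 4.26 and 37.4 CPM (1.03 ± 0.64). The 2 genes of the egress pair were thus in opposite directions in all 9 pairs, and neither passed the FDR.

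Cxcr6, a receptor of tissue-resident and liver-homing T cells whose promoter is shown above, measured 548, 460 and 478 CPM against 385, 195 and 276 CPM (0.80 ± 0.34). The lymph node homing receptor gene Ccr7 overlapped, at 1.48 to 11.1 CPM against 5.19 to 16.8 CPM (-1.06 ± 0.82, adjusted p = 0.50, edgeR). Of 19 chemokine receptor genes tested, 3 were lower (15.8%) and 2 higher (10.5%) in all 9 pairs with the GC trend removed. Of all genes 13.5% were lower and 14.0% higher.

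Of 28 genes for motors and signal proteins behind these receptors, 7 were lower and 2 higher with the GC trend removed, near the share of all genes above 10 CPM, and 6 were lower and 5 higher with length and level trends removed. Myo1f, a class I myosin, measured 89.4, 57.7 and 65.0 CPM against 261, 220 and 123 CPM (-1.51 ± 0.37), and its relative Myo1g had a log2 fold change of -1.65. Gnai2, the inhibitory G protein that chemokine receptors use (-0.90), the kinase Grk6 (-0.86) and the GTPase exchange factor Arhgef1 (-0.70) were lower. Gng2, a G protein gamma subunit, was higher at 171, 162 and 192 CPM against 105, 73.0 and 146 CPM (0.70 ± 0.34). Gpr18, a lipid receptor, measured 42.2, 23.7 and 13.7 CPM against 90.7, 201 and 58.1 CPM (-2.14 ± 0.57). Of 18 selectin ligand glycosyltransferase genes, 4 were lower (22.2%) and none higher with the GC trend removed, beside 22.0% lower of genes above 10 CPM. Among these 4, St6gal1 kept direction on all 3 scales (2.39 to 4.97 against 8.55 to 29.1 CPM, -2.18 ± 0.58).

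**Figure D4:**
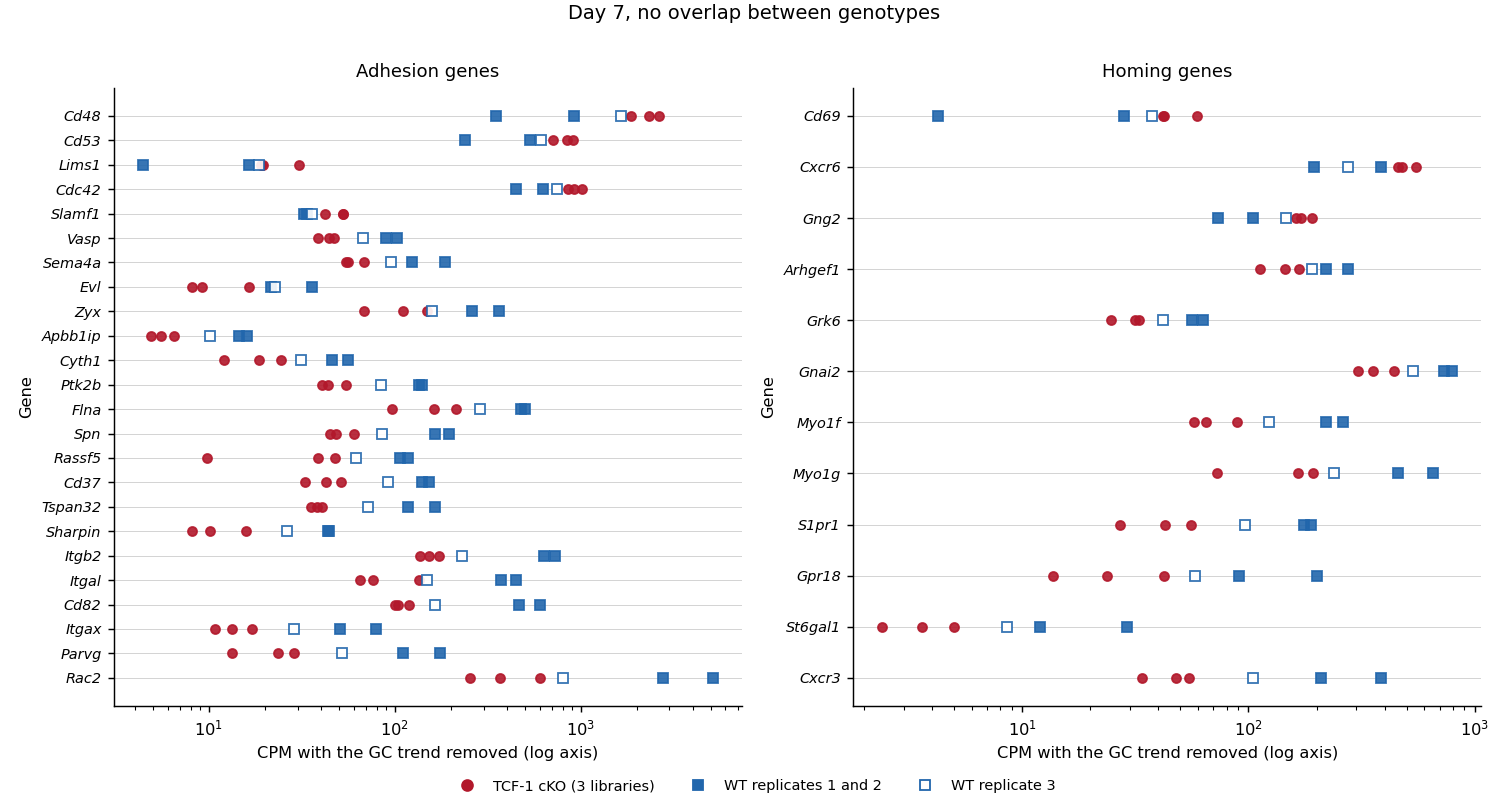
CPM with the GC trend removed (x axes, log scale) of adhesion genes (left) and homing genes (right) without overlap between genotypes on all 3 scales, 1 row per gene and 1 symbol per library. In rows such as Itgal and Gnai2 the open square (WT replicate 3) lies between the TCF-1 cKO circles and the other WT squares.

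Glucose uptake and glycolysis transcripts were lower in TCF-1 cKO at several steps. Slc2a3, encoding the glucose transporter GLUT3, measured 12.8, 11.5 and 6.68 CPM in TCF-1 cKO and 78.3, 112 and 44.2 CPM in WT, with no overlap (-2.92 ± 0.47, adjusted p = 0.12, edgeR). Gpi1, the isomerase that follows glucose phosphorylation, measured 132, 136 and 126 CPM against 552, 895 and 270 CPM (-2.12 ± 0.44). The later enzymes Pfkp (-1.29), Aldoa (-0.98), Pgam1 (-0.97) and Gapdh (-0.92) were lower in all 9 pairs on all 3 scales, and Bpgm, which diverts an intermediate of the pathway, was higher (0.71). In all, 9 of 27 tested genes of this list were lower (33.3%) and 2 higher (7.41%) with the GC trend removed, beside 22.0% and 13.9% of genes above 10 CPM. Slc2a1, encoding GLUT1, was lower in 8 of the 9 pairs (18.9, 9.20 and 5.11 against 45.8, 50.8 and 17.6 CPM, -1.79 ± 0.57, adjusted p = 0.16, edgeR). Ldha, the lactate dehydrogenase subunit, was at 4830 to 6011 against 3867 to 6964 CPM and overlapped (0.03 ± 0.33, with a negative sign under several other settings).

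Genes that feed mitochondrial and one-carbon metabolism were lower at some steps and higher at others. Sdhd, a membrane anchor of succinate dehydrogenase, measured 26.0, 51.6 and 26.3 CPM against 278, 301 and 94.8 CPM (-2.70 ± 0.52), and Sdhc, the other anchor, had a log2 fold change of -1.74. Dlst (-1.44), Mdh2 (-0.79) and the pyruvate carboxylase gene Pcx (-2.35, with the opposite sign when counts were scaled from TPM) were lower, while Fh1, fumarase, was higher at 158, 136 and 140 against 99.8, 58.7 and 78.1 CPM (0.87 ± 0.32) along with Idh3a (0.82). TCA cycle genes were thus not moved as a block, with 9 of 32 members of their list lower and 4 higher with the GC trend removed. These are 28.1% and 12.5%, beside 22.0% and 13.9% of genes above 10 CPM. Shmt1, which feeds one-carbon units from serine, measured 9.53, 20.2 and 10.3 CPM against 56.5, 95.7 and 32.2 CPM (-2.20 ± 0.50). Shmt2 (-1.44), Mthfd1 (-1.25) and Pgls (-0.18, adjusted p = 0.75, edgeR) were lower and Tyms, thymidylate synthase, was higher (0.82). Of 18 pentose phosphate and one-carbon genes, 6 were lower (33.3%) and 2 higher (11.1%) with the GC trend removed. With length and level trends removed, 4 were lower and 4 higher.

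Respiratory chain subunits encoded in the nucleus gave the largest count of higher members, but this count did not hold on the second scale. With the GC trend removed 28 of 72 were higher and 12 lower, and with length and level trends removed 16 were higher and 20 lower, where 19.2% and 14.5% of genes above 10 CPM were higher and lower. These transcripts are short, with a median of 707 bases, and of all genes under 1000 bases and above 10 CPM 34.8% were higher and 8.95% lower. Atp5e, the epsilon subunit of ATP synthase, measured 907, 855 and 926 CPM against 194, 172 and 546 CPM (1.56 ± 0.46), and Ndufs5, a subunit of complex I, 346, 288 and 430 CPM against 62.6, 42.7 and 203 CPM (1.79 ± 0.56). Both kept direction on all 3 scales, as did Atp5f1 (0.65), while Atp5j2 (1.42) and Atp5h (0.99) did not. Atp5b and Atp5a1, the catalytic core subunits of the same enzyme, were lower, at 433 to 846 against 926 to 3109 CPM and at 213 to 542 against 644 to 1088 CPM (-1.79 ± 0.48 and -1.39 ± 0.43). Cox5a (-1.67), Cox5b (-0.94), Atp5g1 (-0.86), Atp5g2 (-0.85), Cox8a (-0.60), Uqcrc1 (-0.60) and Cox6a1 (-0.45) were lower too. None of the 13 respiratory chain genes encoded in mitochondria was without overlap once the GC trend was removed, although the summed share of these transcripts did not overlap as counted.

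Lipid and amino acid genes stood on both sides. Pmvk, phosphomevalonate kinase of cholesterol synthesis, whose promoter is shown above, measured 8.81, 4.88 and 7.96 CPM against 20.7, 28.9 and 19.7 CPM (-1.68 ± 0.38). Idi1, a later enzyme of the same pathway, was higher (1.32), and the fatty acid elongase gene Elovl1 (-1.40) was lower. Of 37 genes of fatty acid and cholesterol synthesis and uptake, 8 were lower and 1 higher with the GC trend removed, of which 2 and 1 held on all 3 scales. The 8 lower genes are 21.6% of the list, near the 22.0% of genes above 10 CPM. In the list of amino acid transport and mTORC1, Flcn (-2.48), the translation repressor Eif4ebp2 (-2.08) and the mTOR subunit Mlst8 (-1.18) were lower, and Lamtor3 (0.66) and Rragd (1.72) higher. The lower genes thus include a subunit of mTOR complexes beside a repressor that mTORC1 holds off.

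**Figure D5:**
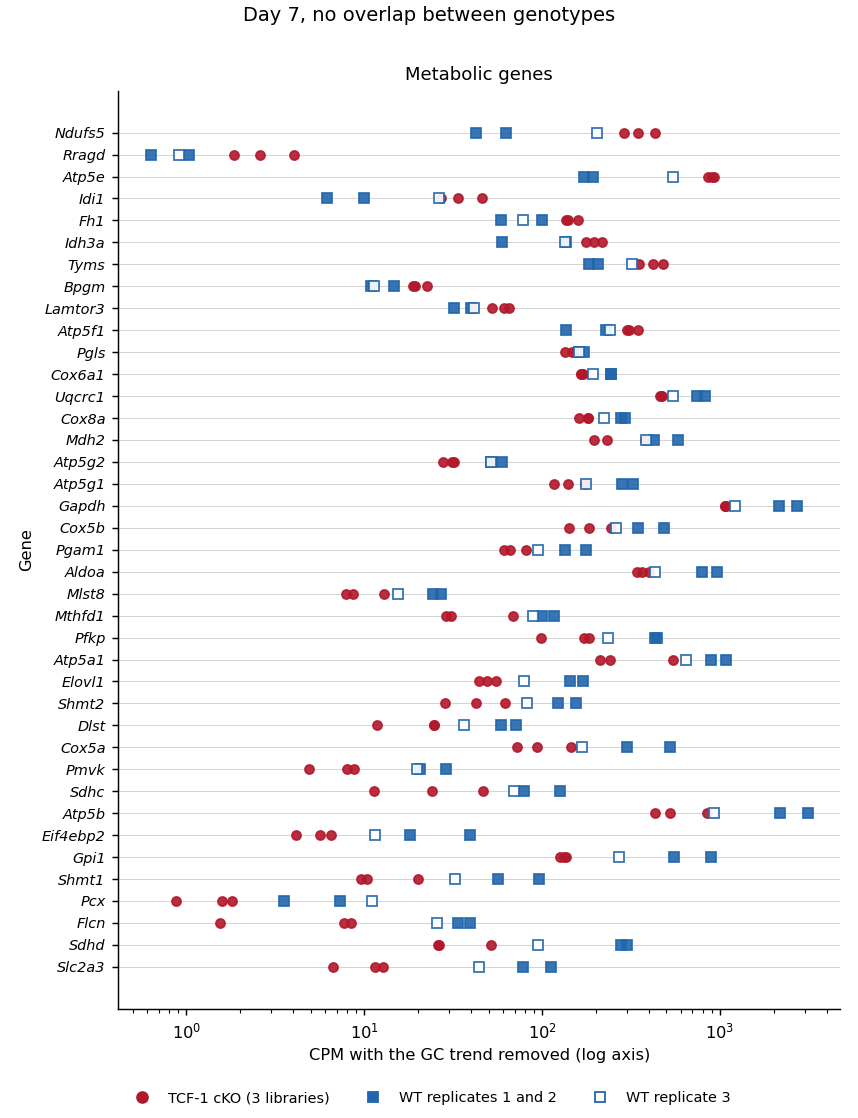
CPM with the GC trend removed (x axis, log scale) of metabolic genes without overlap between genotypes on all 3 scales, 1 row per gene and 1 symbol per library. Ndufs5 and Atp5e lie at the top with TCF-1 cKO circles on the right, and Slc2a3 and Sdhd lie at the bottom with circles on the left.

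The genotype difference at day 7 was compared with that in CD8 T cells before transplant, which come from 3 TCF-1 cKO and 3 WT libraries of the same series. As an interaction over all 12 libraries with the GC trend removed, edgeR called 2 of 21526 genes (0.00929%), the gene models Gm28438 and Gm4724, while 3238 (15.0%) had an unadjusted p under 0.05. Of 586 members tested, none was called and 146 had an unadjusted p under 0.05. The member with the smallest adjusted p was Cd160 (0.11, edgeR), for which the log2 fold change was -2.33 before transplant and 1.25 at day 7. Klrk1 went from -1.11 to 1.22 and Cd48 from -1.58 to 1.23 (adjusted p of the interaction 0.27 and 0.17, edgeR). Gzmc was higher at both stages (4.53 and 2.56), and Cxcr3 (-1.43 and -2.36), Itgal (-1.76 and -1.81), Slc2a3 (-1.33 and -2.92) and Gpi1 (-1.32 and -2.12) were lower at both. Across all genes the median log2 fold change before transplant was -0.27, so a negative value there is common. Of the members kept on all 3 scales, 4 of the 32 higher and 76 of the 80 lower had the same sign before transplant. No such share was taken over all genes kept on the 3 scales, so these counts cannot be set against other genes. Cd8a and Cd8b1, which overlapped at day 7, stood at -2.72 and -1.63 before transplant. The pre-transplant libraries held 4520270 to 9577076 estimated counts in TCF-1 cKO and 18978963 to 28884454 in WT. Transcripts annotated as retained introns made up 9.04% to 12.7% and 6.17% to 8.38% of their counts. The part of these differences was not tested. The count of interaction calls was 1877 without WT pre-transplant replicate 2, 317 without TCF-1 cKO pre-transplant replicate 3 and 309 without WT day 7 replicate 3, and at most 4 without any other library.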

How the data were processed

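RNA-seq of sorted splenic CD8 T cells was analysed from 12 libraries, of which 6 were taken at day 7. Per the labels, cDNA was made with the SMARTseq HT kit and libraries with Nextera XT, and per the study's methods the authors quantified transcripts with kallisto 0.46.2. The deposited files give estimated counts and TPM per transcript. The submitters' processing notes also name limma and mm9, without a role. Of 117497 transcripts, 116374 were joined by identifier without version to GENCODE M21 (GRCm38), where 99.547% had the same length, and estimated counts were summed to 35855 genes and rounded. No per-sample column was left out.

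Genes were filtered with filterByExpr and tested with edgeR 4.0.16 (TMM factors, quasi-likelihood test, Benjamini-Hochberg adjustment, FDR 0.1) in R 4.3.3. For each library the deviation of log2 CPM (prior count 0.5) from the gene mean over the 6 libraries was fitted on transcript GC content weighted by abundance (robust loess, span 0.4, degree 2), and the fit entered edgeR as an offset. A second scale removed trends on length and mean level as well. limma 3.58.1 and DESeq2 1.42.0 were alternatives, beside other filters, other trend removals, a replicate block and leaving out each library. The scripts were tested on simulated data. With 3 libraries against 3, an exact permutation test cannot give a p below 0.1. Limits set by depth cover counting error alone, because without molecular identifiers reads are not independent molecules.

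The 20 gene lists in 4 groups and the comparison were chosen with earlier results of these data known. Genes named were a set list of T cell genes, up to 5 members per group and direction with the smallest p among those without overlap both as counted and with the GC trend removed, up to 5 genes per direction past the FDR, and, chosen after their values were seen, the members without overlap on all 3 scales. Some genes that the rule names are not reported here. Python 3.11.15, pandas 2.3.3, NumPy 2.4.6 and matplotlib 3.10.9 were used for joins and plots.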

Additional observations from a re-analysis of the deposited data

How the results depend on the processing

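With the GC trend removed, the calls at day 7 (3 higher, 0 lower) became 403 and 2465 without removal of the trend, 330 and 1866 without a filter on low counts, and 922 and 1395 with DESeq2, and 1 gene was higher among protein-coding genes alone. Leaving out 1 library gave 2 to 1122 higher and 0 to 1773 lower calls, the highest values without WT replicate 3. As counted (403 and 2465), DESeq2 called 1068 higher, an FDR of 0.05 gave 119 and 1277, and leaving out 1 library gave 0 to 1768 and 0 to 3531, again with the highest values without WT replicate 3. The interaction with stage (2 genes) gave 1 call without removal of the trend and 1 to 1877 calls when 1 library was left out. The cause of these changes was not tested.

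Members without overlap numbered 29 higher for effector genes, and 13 higher and 35 lower for homing genes, without removal of the trend. Homing genes had 12 higher with length and level trends removed and 33 lower without a filter. With 1 library left out, which leaves fewer pairs, higher and lower counts were 18 to 28 and 41 to 57 for effector, 10 to 18 and 33 to 44 for adhesion, 8 to 13 and 19 to 32 for homing, and 41 to 63 and 63 to 93 for metabolic genes.

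Single genes changed sign as follows. Ldha was at -0.37 without trend removal, -0.10 with length and level trends removed, -0.14 with GC bins, -0.10 with unweighted GC content, -0.30 without a filter, -0.044 with counts scaled from TPM, and from -0.25 to 0.080 with 1 library left out. Cd4 was at -0.12 without trend removal, -0.23 without a filter, -0.62 with counts scaled from TPM, and -0.62 and -0.47 without TCF-1 cKO replicate 1 and WT replicate 1, against up to 0.47 with another library left out. Tcf7 was at 0.19 with length and level trends removed and 0.49 with unweighted GC content, where Skap1 was at -0.27 and Rassf5 at 0.17. Pcx was at 0.87 with counts scaled from TPM.

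Replicate numbers did not pair the libraries, since deviations of same-numbered libraries correlated at 0.07, -0.02 and 0.05. With the number as a replicate block, edgeR called 2 genes higher and 0 lower with the GC trend removed, 263 higher and 1775 lower as counted, and 7 in the interaction.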
